A study of Mus musculus with 7 samples.

Results

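Transcripts of 36 nuclear genes for subunits of respiratory complexes II, III, IV and V were examined in microglia, the resident macrophages of the brain. The genes were taken from a list of subunit symbols matched to the array's probe annotation. The matching used no measured value, but the list was chosen with earlier results of these data known. All 36 were found among the 19505 named genes of the array, each by 1 probe set, with 4 in complex II, 8 in complex III, 10 in complex IV and 14 in complex V. Microglia were sorted as viable CD45+ CD11b+ cells from brains of C57BL/6 mice, and RNA was hybridized to 1 expression array per sample. All mice carried the 5xFAD transgenes, which cause amyloid plaques, so no group without amyloid was compared. The genotype was 5xFAD;B2m+/+ in 3 samples (wildtype) and 5xFAD;B2m–/– in 4 (knockout). B2m encodes beta-2 microglobulin, which MHC class I needs to reach the cell surface. Treatment, age and sex are not stated in the labels, and no label says whether each sample is a separate animal. The p-values therefore cover only the spread among these 7 samples, which may be technical.

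Complex II, succinate dehydrogenase, feeds electrons from the tricarboxylic acid cycle into the ubiquinone pool. Complex III passes them from ubiquinol to cytochrome c, and complex IV passes them from cytochrome c to oxygen. Complexes III and IV pump protons across the inner mitochondrial membrane, and complex V, ATP synthase, lets protons flow back to make ATP. Apart from complex II, each holds catalytic or proton-conducting subunits encoded in mitochondrial DNA, which were not analysed here. Microglia use oxidative phosphorylation in the resting state and shift towards glycolysis under some inflammatory stimuli.

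Expression values are the authors' RMA values on the log2 scale, and each difference is knockout minus wildtype on that scale. Correlations between arrays over the 10004 tested genes lay between 0.946 and 0.980. The targeted gene B2m was 13.41 ± 0.017 (SD, n = 3) in the wildtype group but 10.41 ± 0.13 (SD, n = 4) in the knockout group (limma adjusted p = 1.54e-07), as the labels state. The 7 microglial markers found on the array lay above a limit in every array, the 95th percentile of its negative control rows, as did Ptprc and Itgam, the genes for CD45 and the CD11b chain. None of the astrocyte, oligodendrocyte, neuron, dendritic cell, T cell, NK cell, B cell and erythroid markers found on the array did so in any array. Endothelial markers set wildtype replicates 1 and 2 apart. The mean level of 10 of them was 10.79 and 10.73 there, 10.04 in wildtype replicate 3 and 10.09 to 10.26 among knockout arrays. Bsg alone did not share that order, and of the 10 markers 6 lay above that limit in every array and 2 in none. The mean of the 5 mural cell markers shared that order, at 8.81 and 9.11 in wildtype replicates 1 and 2 and 8.28 to 8.57 elsewhere. Singly, Kcnj8 and Rgs5 did not, and of the 5 markers 1 lay above that limit in every array and 3 in none. Neutrophil markers were highest in knockout replicates 3 and 4. Their mean level was 10.84 and 11.57 there and 9.38 to 10.16 in the other arrays, over 5 markers. Monocyte markers averaged 9.64 in knockout replicate 4 and 8.26 to 8.96 in the other arrays, and border-associated macrophage markers 8.70 to 9.16 over all arrays. Of 6 monocyte markers, 0 lay above the negative control limit in every array and 3 in none. Of 6 border-associated macrophage markers, 2 lay above it in every array and 3 in none. In sorted bulk samples, fewer cells of a type and less RNA per cell cannot be told apart.

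Subunit transcripts of complexes III, IV and V were higher on average in knockout microglia, and those of complex II went both ways. All 36 genes passed the filter on low values, and 34 had a difference above 0, against 48.6% of all tested genes. The median difference was 0.31 over the 36 genes and -0.0055 over all tested genes. No subunit gene passed the threshold (limma, adjusted p under 0.05 over all tested genes, which 0.05% of tested genes passed), and their smallest adjusted p was 0.285. At an unadjusted p under 0.05, 17 of the 36 were higher, against 8.39% of all tested genes, and 0 were lower, against 3.54%. All 4 knockout arrays lay above all 3 wildtype arrays for 13 of the 36, against 7.10% of tested genes, and below them for 0, against 3.80%. The count at an unadjusted p under 0.05 dropped to 4 when wildtype replicate 1 was left out (4.74% of tested genes), and to 10 when wildtype replicate 2 was (5.71%). It was 9 without knockout replicate 1 (6.95%) and 11 without knockout replicate 2 (7.12%). After repeated quantile normalization, the groups did not overlap for 5 of the 36 genes, against 5.23% of tested genes. Sdhc, Sdhd, Uqcrc2, Atp5c1 and Atp5k lay below the limit set by the 95th percentile of the negative controls in every array, so their signal was dim.

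**Figure D1:**
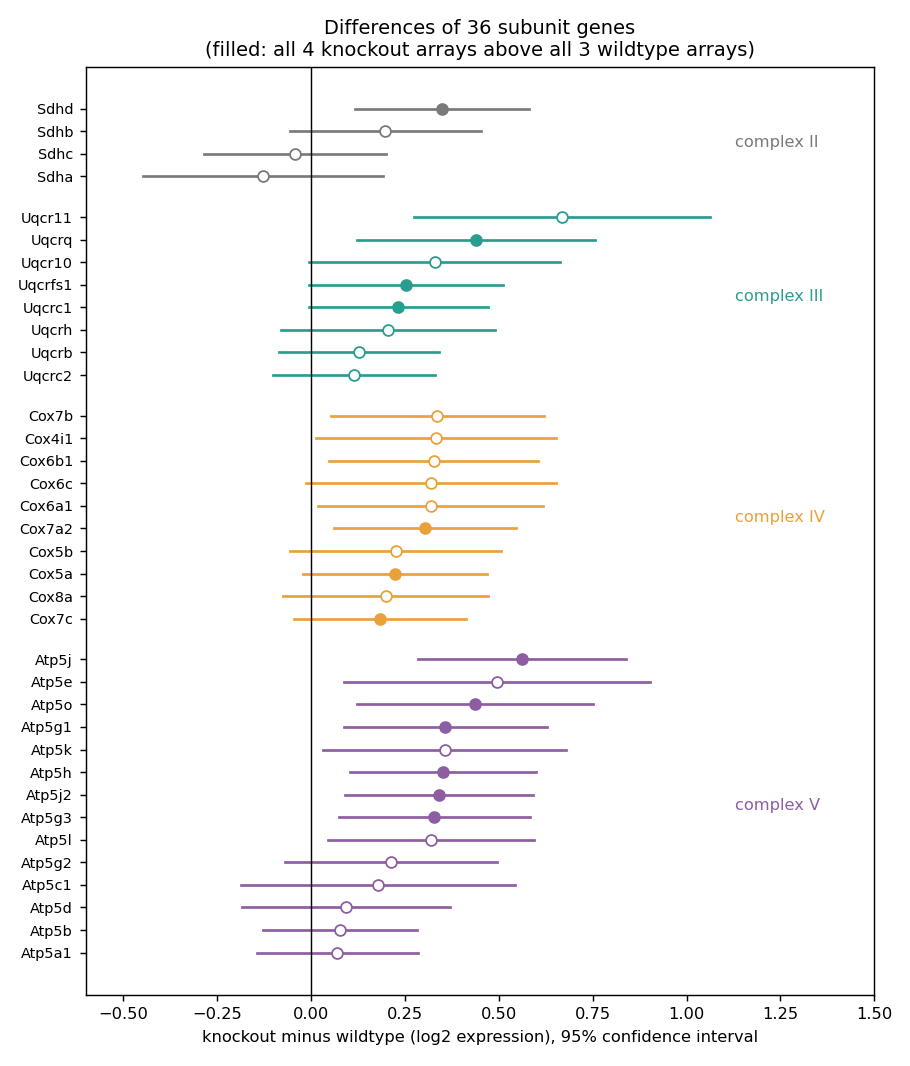
Differences between knockout and wildtype arrays in log2 expression for the 36 subunit genes, by complex, with 95% confidence intervals from limma. Filled points are the 13 genes whose knockout arrays all lay above the wildtype arrays. All 32 points of complexes III to V lie right of 0, and the complex II genes lie on both sides.

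Promoters are shown for some of the genes on which the contrasts between and within complexes turn. These are the largest differences in complexes II, III and V, the lowest in complex II, Atp5b of the catalytic head and the subunit c genes. Each line holds the 150 bases before the transcription start, on the gene's strand, from RefSeq on build GRCm38.p6. Capitals mark matches, on either strand, to motifs of factors known to act on respiratory genes. The motifs were GCATGCGC (NRF-1), CGGAAG (ETS factors such as GABP), AAGATGGC (YY1), GGGCGG (Sp factors) and AAGGTCA (estrogen-related receptors).
Sdhd (chr9:50603850-50603999, minus strand): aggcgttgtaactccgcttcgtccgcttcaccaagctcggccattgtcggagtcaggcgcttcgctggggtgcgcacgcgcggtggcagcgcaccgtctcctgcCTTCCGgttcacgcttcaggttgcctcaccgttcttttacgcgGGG
Sdha (chr13:74350241-74350390, minus strand): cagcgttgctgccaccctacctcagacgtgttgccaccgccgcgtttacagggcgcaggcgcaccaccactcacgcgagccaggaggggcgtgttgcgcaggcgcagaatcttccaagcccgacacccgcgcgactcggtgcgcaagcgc
Uqcr11 (chr10:80406822-80406971, minus strand): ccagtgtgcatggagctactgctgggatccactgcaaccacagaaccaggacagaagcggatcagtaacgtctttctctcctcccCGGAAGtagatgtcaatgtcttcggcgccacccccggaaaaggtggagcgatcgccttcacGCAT
Atp5j (chr16:84834977-84835126, minus strand): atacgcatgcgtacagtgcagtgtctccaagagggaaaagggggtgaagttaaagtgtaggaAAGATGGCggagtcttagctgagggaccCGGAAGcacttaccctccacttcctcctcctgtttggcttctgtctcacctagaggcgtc
Atp5b (chr10:128083157-128083306, plus strand): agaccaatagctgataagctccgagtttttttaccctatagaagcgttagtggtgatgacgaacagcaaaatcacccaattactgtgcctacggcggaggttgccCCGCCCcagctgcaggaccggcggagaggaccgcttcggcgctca
Atp5g1 (chr11:96075632-96075781, minus strand): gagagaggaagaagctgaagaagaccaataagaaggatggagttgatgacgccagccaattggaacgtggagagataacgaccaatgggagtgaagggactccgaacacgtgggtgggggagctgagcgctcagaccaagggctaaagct
Atp5g2 (chr15:102671048-102671197, minus strand): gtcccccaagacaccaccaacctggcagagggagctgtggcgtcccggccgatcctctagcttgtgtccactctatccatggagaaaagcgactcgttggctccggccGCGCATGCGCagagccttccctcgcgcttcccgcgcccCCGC
Atp5g3 (chr2:73911327-73911476, minus strand): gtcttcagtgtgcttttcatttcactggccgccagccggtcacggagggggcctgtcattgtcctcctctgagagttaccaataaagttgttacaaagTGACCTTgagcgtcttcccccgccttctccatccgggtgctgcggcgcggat
Uqcr11 has an ETS match that begins 65 bases before the start and an NRF-1 match that begins at its last 4 printed bases and runs past the start. Uqcrh, not printed, had the smallest difference among complex III genes with a listed promoter. It has an ETS match that begins 10 bases before the start. Whether matches go with the size of a difference was not tested. Sdhd has an ETS match that begins 46 bases before the start, an Sp match that runs past it and a receptor match after it, whereas Sdha has no match in its 300-base window. Atp5j has 2 listed starts, and the second, shown here, holds a YY1 match and an ETS match that begin 88 and 60 bases before it. The first start, not printed, has an Sp match that begins 88 bases before it and another after it, without an ETS or YY1 match. Among the subunit c genes, Atp5g2 holds overlapping NRF-1 matches on the 2 strands, an Sp match that runs past the start and an ETS match that begins 210 bases before it, outside the printed stretch. Atp5g3 holds a receptor match, and Atp5g1 holds none.

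Promoters were listed for 29 of the 36 genes, and each search covered 250 bases before and 50 after the start, counting a gene when any of its listed starts matched. The ETS motif was found in 18 of the 29 (62.1%), against 34.1% of the 8157 tested genes with a promoter. The NRF-1 motif was found in 7 (24.1%), against 5.63%, and the receptor motif in 5 (17.2%), against 3.89%. The Sp motif was found in 9 (31.0%), against 66.4%, and the YY1 motif in 2 (6.90%), against 5.33%. Over all 27025 genes of the promoter table the shares were 18.8% for ETS, 3.05% for NRF-1, 5.38% for the receptor motif, 38.2% for Sp and 3.19% for YY1. These are letter matches in a fixed window, and binding was not measured. In complex IV the ETS motif was found in 6 of 8 promoters, in complex V in 8 of 13, in complex III in 2 of 5 and in complex II in 2 of 3. Cox7b and Cox7c, with the largest and smallest difference in complex IV, both had none of the 5 motifs.

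Complex II was the only one of the 4 complexes whose genes split in direction, and its median difference was 0.078 over 4 genes. That median was 0.020 without wildtype replicate 2 and 0.052 without knockout replicate 1. Sdha, the flavoprotein that oxidizes succinate, had levels of 9.95, 9.81 and 9.90 among wildtype arrays and 9.56, 9.50, 10.04 and 9.94 among knockout arrays. Knockout replicates 1 and 2 lay below every wildtype array and replicates 3 and 4 did not, for a difference of -0.13 (SE 0.14, limma adjusted p = 0.760). Its 95% confidence interval ran from -0.45 to 0.19. Sdhb, the iron-sulfur subunit that takes the electrons on, had a difference of 0.20 (SE 0.12), with wildtype levels of 10.53 to 10.78 and knockout levels of 10.66 to 10.99. The membrane anchors Sdhc and Sdhd, which bind ubiquinone, stood apart from each other. Sdhd was 8.91, 8.88 and 9.15 among wildtype arrays and 9.37, 9.37, 9.35 and 9.22 among knockout arrays. Its groups did not overlap, and the difference was 0.35 (SE 0.10, limma adjusted p = 0.320). Sdhc was 8.93 ± 0.11 (SD, n = 3) among wildtype arrays and 8.89 ± 0.13 (SD, n = 4) among knockout arrays, and its difference of -0.042 changed sign with array weights (0.022) and without wildtype replicate 1 (0.013).

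Complex III had a median difference of 0.24, with 8 of 8 genes above 0, against 48.6% of all tested genes. At an unadjusted p under 0.05, 2 of 8 were higher, against 8.39% of all tested genes. The small accessory subunit gene Uqcr11 had the largest difference of the 36, 0.67 (SE 0.18, limma adjusted p = 0.315), or 1.59-fold (95% confidence limits 1.21 and 2.09). Its levels were 9.55, 9.89 and 10.30 among wildtype arrays and 10.79, 10.68, 10.57 and 10.29 among knockout arrays. Wildtype replicate 1 was lowest, and knockout replicate 4 lay just under wildtype replicate 3, so the groups overlapped. Uqcrq, which encodes a small subunit next to cytochrome b, was 11.22, 11.57 and 11.77 among wildtype arrays and 11.99, 12.16, 11.87 and 11.82 among knockout arrays. There every knockout array lay above every wildtype array, with a difference of 0.44 (SE 0.14, limma adjusted p = 0.340). Uqcr10 had a difference of 0.33 (SE 0.15), with wildtype replicate 1 at 10.89 and the other arrays at 11.40 to 11.70.

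The other 5 genes of complex III differed by 0.11 to 0.25. Uqcrfs1, the Rieske iron-sulfur protein, was 9.41, 9.75 and 9.78 among wildtype arrays and 9.84, 9.83, 10.01 and 9.92 among knockout arrays, a difference of 0.25 (SE 0.12) with no overlap between groups. Uqcrc1 and Uqcrc2 encode the large core proteins on the matrix side. Uqcrc1 differed by 0.23 (SE 0.11), also without overlap, and Uqcrc2 by 0.11 (SE 0.098) with overlap. Uqcrh, the hinge protein that helps cytochrome c dock, differed by 0.21 (SE 0.13), and Uqcrb by 0.13 (SE 0.096). Limma adjusted p values of these genes lay between 0.428 and 0.676.

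**Figure D2:**
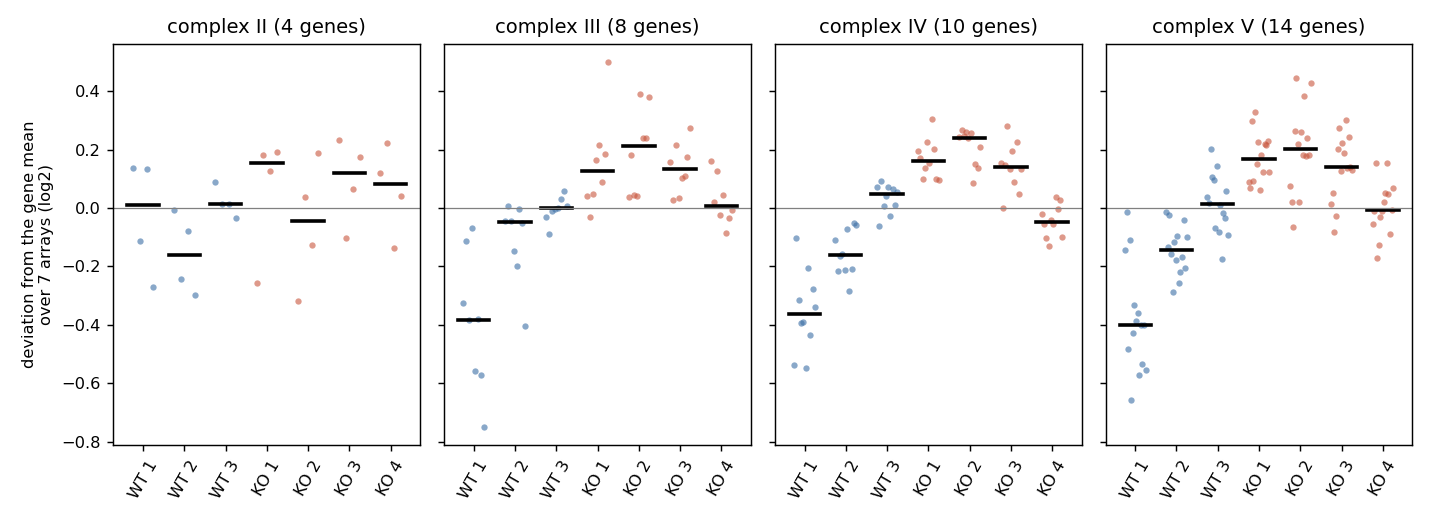
Deviation of each gene from its mean over the 7 arrays in log2 units, for complexes II, III, IV and V. Points are genes (wildtype arrays blue, knockout arrays red) and black bars are array medians. In complexes III to V, wildtype replicate 1 has the lowest median (-0.38, -0.36 and -0.40) and knockout replicate 4 lies near wildtype replicate 3.

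The genes of complex IV had the narrowest range of differences among complexes III, IV and V, from 0.18 to 0.34 with a median of 0.31. All 10 lay above 0, and 5 of 10 were higher at an unadjusted p under 0.05, against 8.39% of all tested genes. Cox4i1, the nuclear subunit through which ATP inhibits the enzyme, was 12.09, 12.52 and 12.70 among wildtype arrays and 12.82, 12.87, 12.78 and 12.61 among knockout arrays. Only knockout replicate 4 reached into the wildtype range, and the difference was 0.33 (SE 0.14, limma adjusted p = 0.405). Cox7b, a small membrane subunit, was 11.26, 11.49 and 11.76 among wildtype arrays and 11.90, 11.85, 11.92 and 11.69 among knockout arrays. Its difference of 0.34 (SE 0.13, limma adjusted p = 0.372) was the largest of the complex.

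Cox7a2, the form of its subunit found in most tissues, was 11.97, 11.90 and 12.15 among wildtype arrays and 12.49, 12.27, 12.27 and 12.22 among knockout arrays. It was among 3 of the 10 complex IV genes higher without overlap, against 7.10% of all tested genes. Its difference was 0.30 (SE 0.11, limma adjusted p = 0.349). The others without overlap were Cox5a at 0.22 (SE 0.11) and Cox7c at 0.18 (SE 0.10), with gaps of 0.0092 and 0.015 between the groups. Cox6b1, on the side facing the intermembrane space, differed by 0.33 (SE 0.13), Cox6c by 0.32 (SE 0.15) and Cox6a1 by 0.32 (SE 0.14). The zinc-binding subunit gene Cox5b at 0.23 (SE 0.13) and the small membrane subunit gene Cox8a at 0.20 (SE 0.12) completed the complex. Knockout replicate 4 was the lowest knockout array for all 10 genes of the complex.

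Complex V had a median difference of 0.33, and all 14 genes lay above 0. Of these, 9 were higher at an unadjusted p under 0.05, against 8.39% of all tested genes. Differences in the stalk and membrane part ran from 0.32 to 0.56 with a median of 0.35 over 6 genes, and in the ring of c subunits from 0.21 to 0.36 with a median of 0.33 over 3 genes. The catalytic F1 head ran from 0.070 to 0.50 over 5 genes, a range that overlaps both others, with a median of 0.094. The F1 median was 0.17 without wildtype replicate 3, 0.15 without knockout replicate 4, and -0.0067 without wildtype replicates 1 and 2. The difference between these parts was not tested.

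In the F1 head, Atp5a1 and Atp5b encode the alpha and beta subunits, which form the catalytic hexamer. Atp5a1 was 12.15, 12.28 and 12.33 among wildtype arrays and 12.38, 12.37, 12.31 and 12.24 among knockout arrays, and Atp5b was 12.85, 12.73 and 12.88 against 12.94, 12.89, 12.92 and 12.86. The groups overlapped in both genes, which differed by 0.070 (SE 0.097) and 0.076 (SE 0.092), with upper bounds of the 95% confidence interval at 0.28. Atp5d, the delta subunit of the central stalk, differed by 0.094 (SE 0.12). Atp5c1, the gamma subunit that turns inside the head, differed by 0.18 (SE 0.16), at dim levels of 7.83 to 8.61, and it changed sign without wildtype replicate 1 (-0.012). The negative control limit named above was 9.35 to 9.55. Atp5e, the small epsilon subunit, departed from the rest of the head. It was 9.70, 10.07 and 10.45 among wildtype arrays and 10.69, 10.80, 10.56 and 10.23 among knockout arrays, a difference of 0.50 (SE 0.18, limma adjusted p = 0.362), with knockout replicate 4 inside the wildtype range.

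Atp5g1, Atp5g2 and Atp5g3 encode the same mature subunit c with different import sequences. Whether their probe sets tell them fully apart was not analysed here. Atp5g1 was 9.77, 10.08 and 10.13 among wildtype arrays and 10.35, 10.42, 10.47 and 10.17 among knockout arrays (difference 0.36, SE 0.12). Atp5g3 was 10.10, 10.39 and 10.40 among wildtype arrays and 10.55, 10.75, 10.71 and 10.51 among knockout arrays (difference 0.33, SE 0.12). Both showed no overlap between the groups. Atp5g2 was 9.24, 9.40 and 9.72 among wildtype arrays and 9.80, 9.60, 9.70 and 9.56 among knockout arrays, so that wildtype replicate 3 lay above 3 knockout arrays (difference 0.21, SE 0.13). The limma adjusted p was 0.348 for Atp5g1 and for Atp5g3 and 0.534 for Atp5g2. The promoter letters printed above differ among the 3 genes in their motif matches, and a link between matches and differences was not tested.

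Within the stalk and membrane part, Atp5j had the smallest p of the 36 genes. It encodes coupling factor 6 of the peripheral stalk and was 10.06, 10.42 and 10.46 among wildtype arrays and 10.76, 11.02, 10.94 and 10.79 among knockout arrays. The lowest knockout array lay 0.30 above the highest wildtype array, the widest such gap of the 13 genes without overlap. The difference was 0.56 (SE 0.12, limma adjusted p = 0.285), or 1.48-fold (95% confidence limits 1.22 and 1.79). Atp5o, the OSCP subunit that joins the stalk to the F1 head, was 9.08, 9.53 and 9.54 among wildtype arrays and 9.75, 10.06, 9.76 and 9.70 among knockout arrays. Its groups were separate, with a difference of 0.44 (SE 0.14, limma adjusted p = 0.339). Atp5h, subunit d of the stalk, was 11.64, 11.74 and 12.01 among wildtype arrays and 12.18, 12.18, 12.19 and 12.05 among knockout arrays, a difference of 0.35 (SE 0.11, limma adjusted p = 0.334).

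The membrane subunits f, e and g help ATP synthase form dimers at the edges of cristae. Atp5j2 (subunit f) differed by 0.34 (SE 0.11) without overlap. Atp5k (subunit e) differed by 0.36 (SE 0.15) and Atp5l (subunit g) by 0.32 (SE 0.12), and in both knockout replicate 4 lay inside the wildtype range. Their limma adjusted p values were 0.343, 0.391 and 0.380.

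**Figure D3:**
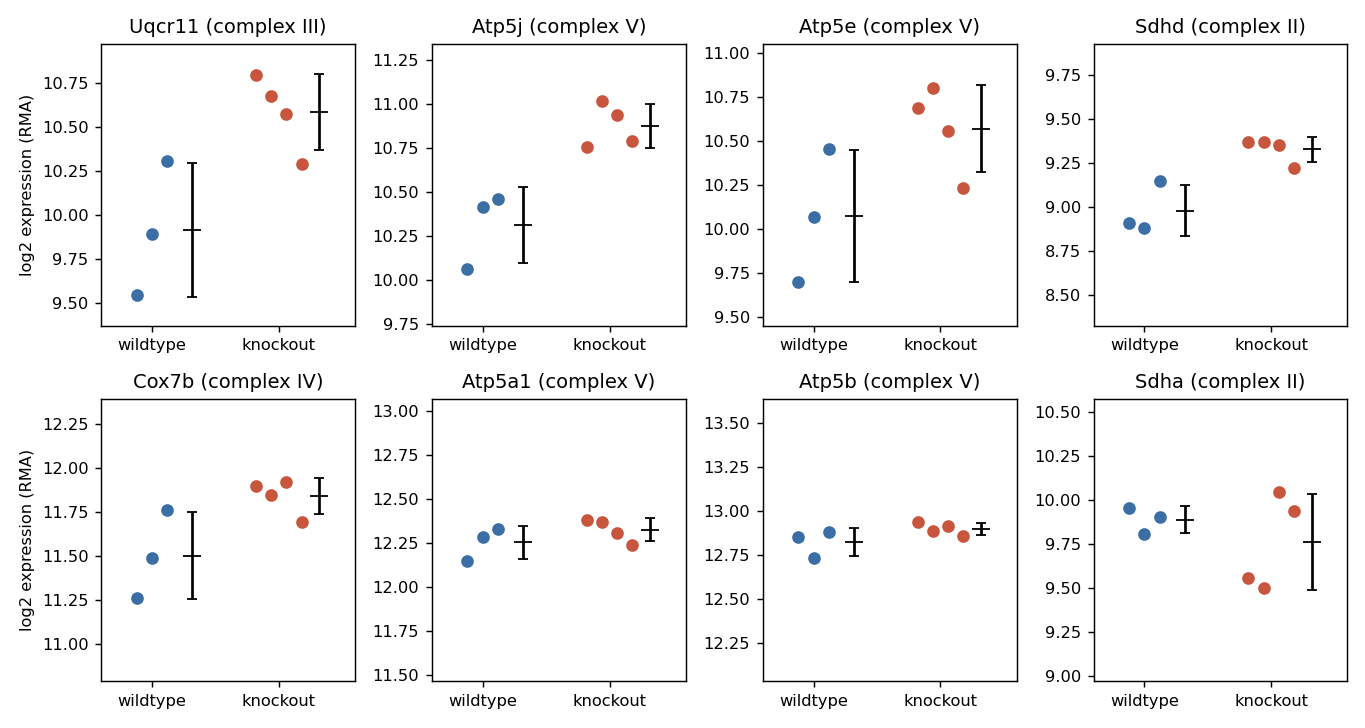
Log2 expression (RMA) of 8 subunit genes in 3 wildtype (blue) and 4 knockout (red) arrays, with the mean and SD of each group in black. All panels span the same range of log2 units. Atp5j and Sdhd show separate groups, and Atp5a1, Atp5b and Sdha show overlapping ones.

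The 36 genes shared an order of the arrays that followed single samples as well as genotype. Wildtype replicate 1 was the lowest of the 7 arrays for 27 genes (75.0%), against 17.5% of all tested genes. Wildtype replicate 3 was the highest wildtype array for 33 of 36, and knockout replicate 4 the lowest knockout array for 29 of 36. Array medians of the deviation from each gene's mean over the 36 genes were -0.38, -0.14 and 0.013 among wildtype arrays and 0.16, 0.20, 0.14 and -0.0083 among knockout arrays. Knockout replicate 4 thus lay below wildtype replicate 3, and these medians overlapped. Without knockout replicate 4, the knockout arrays lay above the wildtype arrays for 28 of the 36 genes, against 11.25% of tested genes, and without wildtype replicate 3 for 27, against 14.7%. Knockout replicate 4 was also highest in neutrophil and monocyte markers, whose part in the result was not tested. The wildtype SD exceeded the knockout SD in 29 of 36 genes (80.6%), against 43.9% of tested genes. The median SD was 0.20 among wildtype arrays and 0.13 among knockout arrays for the 36 genes, and 0.14 and 0.15 for all tested genes.

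The median difference depended on wildtype replicate 1. Without that array it was 0.18 over the 36 genes, and the medians were 0.11 for complex II, 0.14 for complex III, 0.19 for complex IV and 0.22 for complex V. Without it, 34 of 36 genes again had a difference above 0. Wildtype replicates 1 and 2 were also the arrays highest in endothelial markers, given above. Leaving both out, with a single wildtype array and its spread taken from the knockout arrays, gave a median of 0.091 over the 36 genes, 30 above 0 and 1 at an unadjusted p under 0.05, against 2.17% of tested genes. Atp5a1, Atp5d and Atp5g2 then had differences of -0.0067, -0.065 and -0.053. The part of endothelial or mural RNA in the result was not tested.

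Gene length moved with the arrays as well. Deviations from the gene mean correlated across tested genes with the genomic span of the gene, with Spearman coefficients of 0.361, 0.136 and -0.149 among wildtype arrays and -0.243, -0.254, -0.197 and 0.222 among knockout arrays. Of the 36 subunit genes, 32 had spans under the median of tested genes. Across the 36, Spearman's rho between span and difference was -0.480, where genes share the same 7 libraries and are not independent replicates. A trend with span was then removed from each array, fitted over all 19505 named genes and not over the tested genes alone. The median difference over the 36 genes was 0.31 after this, and 17 genes were higher without overlap, against 8.72% of tested genes. The trend left among tested genes was not examined, and the part of gene span in the result was not tested. RNA integrity was not given in the sources used here, and its part in the result was not tested.

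Genes around the 36 were counted from lists of their pathway. Over all tested genes, 48.6% lay above 0. At an unadjusted p under 0.05, 8.39% of all tested genes were higher and 3.54% lower. Complex I, the entry point for electrons from NADH, had 34 of 34 tested subunit genes above 0 with a median of 0.37, and 26 of them higher at an unadjusted p under 0.05. A list of other subunits and isoforms of complexes III to V, with cytochrome c, had 8 of 12 tested genes above 0, a median of 0.21, and 5 higher and 0 lower at that p. The smallest p values there were those of Atp5pb, the peripheral stalk subunit b, at 0.48 (SE 0.11), and of Atp5mpl, a small ATP synthase protein, at 0.47 (SE 0.14). Assembly factors of complexes II to V had 21 of 25 above 0, a median of 0.21, and 8 higher and 0 lower. There Coa6, which helps deliver copper to complex IV, differed by 0.44 (SE 0.11), and Sdhaf4, which helps mature Sdha, by 0.60 (SE 0.16). Both were dim, with wildtype and knockout means of 8.66 and 9.10 for Coa6 and of 7.96 and 8.57 for Sdhaf4. None of these genes passed in limma, with adjusted p from 0.315 to 0.317 for the 4 named.

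The tricarboxylic acid cycle, the partners of ATP synthase and the regulators had medians closer to 0 than the 36 subunit genes together. For the counts below, 48.6% of all tested genes lay above 0 and 8.39% were higher at an unadjusted p under 0.05. The median of complex II alone, 0.078, lay between those of the tricarboxylic acid cycle and the ATP synthase partners. The tricarboxylic acid cycle, to which complex II also belongs, had 8 of 12 genes above 0, a median of 0.082, and 1 higher at an unadjusted p under 0.05. That gene was Suclg1, a subunit of succinyl-CoA ligase, at 0.30 (SE 0.12). Partners of ATP synthase, among them the phosphate and ADP/ATP carriers, had a median of 0.073 over 4 genes, with 0 at that p. Regulators of mitochondrial genes had a median of -0.012 over 9 genes, and Gabpb1, the partner of the ETS factor GABPA, was the 1 gene at that p with 0.45 (SE 0.15). Gabpb1 was dim, with wildtype and knockout means of 8.73 and 9.18, below the negative control limit in every array. It lies on chromosome 2, as do B2m, Spint1, Gatm and Kcnip3, which passed the threshold. Of the subunit genes, Atp5c1, Atp5e and Atp5g3 lie on chromosome 2 too. The part of this location in the differences of Gabpb1 and these subunit genes was not tested. Outer membrane and import genes had 15 of 17 above 0, a median of 0.29 and 7 higher at that p, among them Tomm5 at 0.54 (SE 0.15) and the channel Vdac3 at 0.31 (SE 0.093). Mitochondrial ribosomal proteins had 57 of 63 above 0, a median of 0.25 and 22 higher at that p. Cytosolic ribosomal proteins had 65 of 66 above 0, a median of 0.21 and 21 higher at that p. Without wildtype replicate 1 these medians were 0.15 for mitochondrial and 0.14 for cytosolic ribosomal proteins. Leaving out 1 array at a time gave ATP synthase partners 0.025 (without wildtype replicate 2) to 0.14 (without wildtype replicate 3). Regulators then ran from -0.10 (without wildtype replicate 3) to 0.043 (without wildtype replicate 1), and the tricarboxylic acid cycle was 0.049 without knockout replicate 4. Limma called 0 genes of these lists.

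Complex I and the ribosomal proteins shared with the subunit genes a lowest median in wildtype replicate 1. Array medians of complex I were -0.42, -0.18 and -0.0097 among wildtype arrays and 0.19, 0.24, 0.16 and 0.034 among knockout arrays. Those of cytosolic ribosomal proteins were -0.28, -0.12 and 0.029 among wildtype arrays and 0.16, 0.17, 0.070 and -0.0097 among knockout arrays. Array medians of the tricarboxylic acid cycle ran from -0.037 to 0.096 with no such order, as those of the 7 microglial markers did from -0.079 to 0.090. Singly, the markers Aif1 and Tmem119 were lowest in wildtype replicate 1, at 11.36 and 11.78, and the other markers were not. The groups of Aif1 did not overlap, with a difference of 0.25 (SE 0.11, limma adjusted p = 0.416). Whether the shift of complexes III to V differs from that of the ribosomal genes was not tested.

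**Figure D4:**
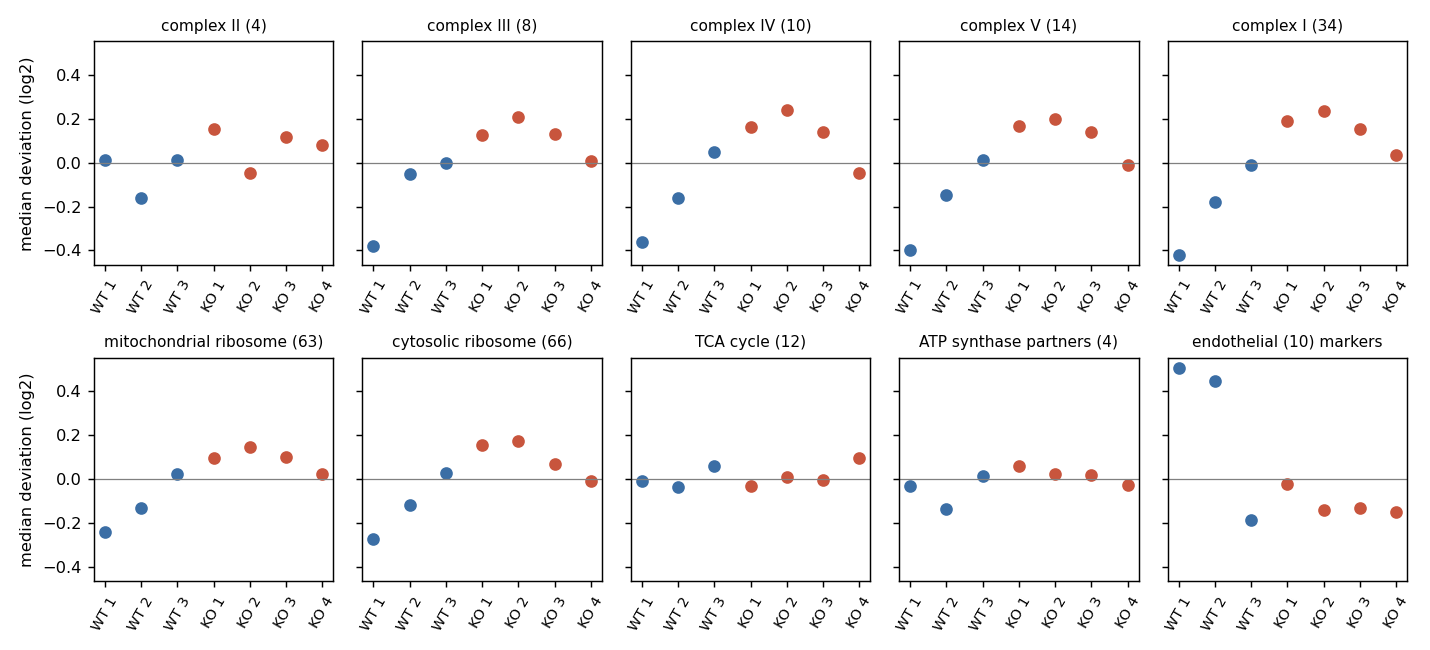
Median deviation from the gene means in log2 units for each of 3 wildtype (WT, blue) and 4 knockout (KO, red) arrays, with the number of tested genes in each title. Complexes III, IV, V and I and both ribosomes are lowest in wildtype replicate 1, the tricarboxylic acid (TCA) cycle stays near 0, and endothelial markers are highest in wildtype replicates 1 and 2.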

How the data were processed

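Per the submitters' processing notes, the authors made the deposited log2 values, 1 per probe set, by RMA in Affymetrix Expression Console 1.1. The genome build of the array was not given in the sources used here. Of 28846 rows, 19572 named 1 gene in the probe annotation, 0 named several and 9274 named none. Entrez identifiers tied all 19572 to RefSeq genes of GRCm38.p6. For 55 genes with several rows, the brightest was kept. Groups follow the genotype labels, and replicate numbers follow deposit order.

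A gene was tested when 3 or more arrays held it above their median for named genes. Both genotypes were compared with limma 3.58.1 (lmFit, eBayes; R 4.3.3), with Benjamini-Hochberg adjustment over all 10004 tested genes, and the script was tested on simulated data. The 5222 rows tagged neg served as negative controls. The subunit genes, the 10 pathway lists and the 15 marker lists were chosen with earlier results of these data known, so no p is given for a list. All 36 subunit genes could be named, and of each other list at most the 4 genes with the smallest p. The list of mitochondrially encoded subunits matched 0 rows. Alternatives were filters, variance priors, array weights, normalization, probe set means, gene span and leaving out arrays. Precision is limited by the 7 arrays.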

Additional observations from a re-analysis of the deposited data

Results flagged for a closer look

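Within the 4 knockout arrays, 1 array stood apart from the others for 4 of the 36 genes. Of the 40 sets of knockout values examined, the 36 genes and the 4 complex medians, these 4 passed the 95% limit for a gap between the outermost array and its neighbour. Chance alone passes about 5% of such sets. These sets come from the same 4 arrays, and the medians reuse the genes. They are therefore not independent, and that rate cannot judge how many passed. The gap as a share of the knockout range was 0.951 for Atp5h, 0.914 for Atp5k and 0.882 for Sdhd, each with knockout replicate 4 low. For Atp5o it was 0.831, with knockout replicate 2 high.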

How the results depend on the processing

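Over 18 alternative settings, 31 of the 36 genes kept their direction and 0 passed the threshold, with a lowest limma adjusted p of 0.0887. Leaving out 1 array at a time gave 4 to 26 genes past the threshold among all tested genes, 26 of them without wildtype replicate 3. The count of subunit genes at an unadjusted p under 0.05 ranged from 4 to 23 (4.74% to 9.51% of all tested genes). The count without overlap ranged from 13 to 28. It was 13 without wildtype replicate 1 (10.37% of tested genes) or knockout replicate 2 (9.79%), and 28 without knockout replicate 4 (11.25%). Sdhc ranged from -0.093 to 0.013 and Atp5c1 from -0.012 to 0.33. Without wildtype replicates 1 and 2, 1 gene was at that p, and the medians were 0.091 over all 36, 0.075 for complex IV and 0.128 for complex V. Atp5a1, Atp5c1, Atp5d and Atp5g2 were then -0.0067, -0.125, -0.065 and -0.053. Without wildtype replicate 1 and knockout replicate 4, 28 genes had no overlap (15.0% of tested genes), Sdhc was 0.053 and Atp5c1 -0.038. Repeated quantile normalization gave 5 genes without overlap (5.23%), array weights put Sdhc at 0.022, and the stricter filter, which tested fewer genes, put the complex II median at 0.198. The other causes were not tested. No paired analysis was possible because the labels carry no replicate numbers shared between the groups. Dim genes near the negative controls are measured least well.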
